A study of Mus musculus with 12 samples.

Results

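The genes described here are 38 mouse genes of the ATF4 response, of amino acid supply and of aminoacylation of transfer RNA (tRNA), measured in the aorta of mice under a challenge that leads to aortic dissection, with or without rapamycin. They were taken by gene name from the non-control probes of a 1-colour Agilent expression array and fall into 5 role lists. There were 11 stress and signalling genes (Atf4, Atf5, Ddit3, Ddit4, Trib3, Chac1, Sesn2, Nupr1, Vldlr, Stc2 and Eif4ebp1), 8 amino acid synthesis genes (Asns, Psat1, Phgdh, Psph, Cth, Cbs, Gpt2 and Pck2) and 4 mitochondrial one-carbon genes (Shmt2, Mthfd2, Mthfd1l and Aldh1l2). The other lists were 4 amino acid transport genes (Slc7a5, Slc3a2, Slc7a1 and Slc7a11) and 11 cytosolic tRNA synthetase genes (Aars, Eprs, Gars, Iars, Lars, Mars, Nars, Sars, Tars, Wars and Yars). They held 48 of the 55675 probes and 38 of the 34796 gene names. A probe was tested where it stood well above background on every array of at least 1 group, and 37 members passed through 44 probes, as 20026 gene names did through 27801 probes. The cystine transporter gene Slc7a11 did not pass, since its 1 probe was well above background on 0 of the 12 arrays. Where a gene had several tested probes, the one with the highest mean stood for it.

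All mice were male C57BL/6J mice aged 11 to 14 weeks, and all arrays held RNA of whole aorta taken at day 3, over the 10 mm above the right renal artery. The challenge joined 2 infused agents, the lysyl oxidase inhibitor β-aminopropionitrile (BAPN) at 150 mg/kg/day and the pressor peptide angiotensin II (AngII) at 1 µg/kg/min. Mice received the mTOR inhibitor rapamycin at 2 mg/kg/day into the peritoneum or, in its place, the vehicle dimethylsulfoxide (DMSO). The 4 groups of 3 mice were DMSO, rapamycin, BA+DMSO and BA+rapamycin, where BA stands for both infused agents, and 1 mouse gave 1 array. Titles in the DMSO group carry the prefix Pre, although the series record gives day 3 for every group. Rapamycin reached the mice as a systemic treatment, so no cell type was singled out by it. Values are log2 intensities minus the log2 of the array's 75th percentile, so that 0 is the 75th percentile of that array, and they compare 1 probe across arrays, never 2 genes with each other.

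ATF4 is a transcription factor whose translation rises when the initiation factor eIF2 is phosphorylated under amino acid shortage or other stress. mTOR complex 1, which rapamycin inhibits, is also known to raise ATF4 output, and with it the genes for serine synthesis and mitochondrial folate metabolism. ATF4 with C/EBP partners binds C/EBP-ATF response elements (CARE) near genes that supply amino acids, load them onto tRNA, or damp stress signalling.

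The promoters show where such letters lie in this family. RefSeq (GRCm38.p6) promoters of 300 bases, 250 before to 50 after each start, were held for 31 of the 38 members, 35 promoters in all, with Mars matched under its current symbol Mars1. The CARE letters TGATGNAA, searched on both strands, occurred in 12 of these 35 promoters (34.3%) and in 1304 of 32851 promoters of all genes (3.97%). The 12 were those of Asns, Trib3, Chac1, Slc7a11, Pck2, Nupr1, Vldlr, Aars, Gars, Iars, Tars and Yars. The E-box letters CACGTG, which read the same on both strands and can share the bases TG with a CARE match, occurred in 5 of the 35 (14.3%) and in 2349 of all promoters (7.15%), the 5 being those of Cbs, Nupr1, Aars, Iars and Tars, and in none of these 5 did the matches of both motifs overlap. Among the members tested, the 11 with a CARE match had a median difference of -0.58 between BA+rapamycin and BA+DMSO, and the 19 with a promoter but no match had -0.61. Stretches of 7 promoters with a match before the start are shown, since they let the match be compared between genes that rose, fell or were not called. The 120 bases before the start of Phgdh and Psat1 are shown because the window of neither held either motif. With all arrays, these were the members with the widest difference under rapamycin in the challenge and in the challenge with vehicle. Without BA+DMSO replicate 2, an array described below, Aldh1l2 had the widest difference under rapamycin in the challenge (-2.53). Each sequence runs 5′ to 3′ on the gene's strand, and capitals mark the CARE letters.
Asns (chr6:7693210-7693329, minus strand): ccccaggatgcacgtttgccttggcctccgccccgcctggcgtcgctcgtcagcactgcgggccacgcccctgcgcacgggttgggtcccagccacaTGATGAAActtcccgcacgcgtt
Phgdh (chr3:98339970-98340089, minus strand): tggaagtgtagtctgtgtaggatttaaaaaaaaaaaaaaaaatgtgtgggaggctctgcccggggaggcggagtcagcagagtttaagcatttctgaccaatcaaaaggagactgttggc
Psat1 (chr19:15925060-15925179, minus strand): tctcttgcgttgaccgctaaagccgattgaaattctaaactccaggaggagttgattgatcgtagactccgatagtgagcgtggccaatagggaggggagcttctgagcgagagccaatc
Chac1 (chr2:119351023-119351082, plus strand): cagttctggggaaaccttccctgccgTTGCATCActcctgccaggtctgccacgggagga
Pck2 (chr14:55540137-55540196, plus strand): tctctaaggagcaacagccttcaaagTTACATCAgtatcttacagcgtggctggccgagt
Nupr1 (chr7:126625547-126625606, minus strand): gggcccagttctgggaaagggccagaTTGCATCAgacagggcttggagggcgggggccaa
Aars (chr8:111033704-111033763, plus strand): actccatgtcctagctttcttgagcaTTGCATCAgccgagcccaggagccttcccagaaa
Gars (chr6:55037945-55038000, plus strand): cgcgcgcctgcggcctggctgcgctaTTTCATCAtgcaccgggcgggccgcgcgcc
Tars (chr15:11399659-11399699, minus strand): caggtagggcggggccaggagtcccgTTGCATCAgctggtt
A match is only a run of letters, and no binding was measured. The Nupr1 stretch also lies within the annotated gene Gm39087.

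The arrays differed in ways that bear on the members. The 75th percentile of the signal was 221 to 280 on the DMSO arrays and 257 to 337 with rapamycin. It was 78.1 to 246 with BA+DMSO and 74.6 to 109 with BA+rapamycin. The challenged groups thus reached lower brightness, although BA+DMSO replicate 3, at 246, lay within the DMSO range. BA+DMSO replicate 2 was the dimmest of its group, at 78.1, beside 132 for replicate 1. Its share of probes well above background, 41.17%, was the lowest of all arrays. Slide 1 held the 3 DMSO arrays and rapamycin replicate 1, and slide 2 held the other arrays. Hence slide and challenge can hardly be told apart with vehicle, whereas rapamycin replicates 2 and 3 shared a slide with both challenged groups. BA+DMSO replicate 2 stood apart from its group: of the 37 members, 11 lay more than 0.5 below and 6 more than 0.5 above both other BA+DMSO arrays there, against at most 3 in either direction on any other array. The median SD of the members was 0.40 in BA+DMSO and between 0.10 and 0.19 in the other groups. Differences that crossed the threshold when this array was left out are given with and without it. The array was picked out from the members' own values, so calls made without it add no independent support. The sample titles also carried dates shared by some arrays: BA+DMSO replicate 1 with BA+rapamycin replicate 1, DMSO replicate 1 with BA+rapamycin replicate 3, and replicates 2 and 3 of DMSO with those of rapamycin. The smooth muscle marker Acta2 fitted the labelled tissue, with group means between 9.75 and 10.27. The 6 smooth muscle markers had a median difference of -0.46 between BA+DMSO and DMSO (-1.05 to 0.45, 4 lower, 0 called). Between BA+rapamycin and rapamycin they ran from -1.79 to 1.05. There 1 was called higher and 1 lower, beside 19.8% and 22.9% of all gene names. In whole tissue, fewer cells of a type and less RNA per cell cannot be told apart.

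The first question was what the challenge did to these genes, with vehicle (BA+DMSO against DMSO) and with rapamycin (BA+rapamycin against rapamycin). With vehicle, the asparagine, serine and folate genes Asns, Psat1, Phgdh and Mthfd2 rose, and Cbs, of the path from homocysteine to cysteine, fell. By limma, 7 of the 37 members were called higher at an adjusted p under 0.05 and 3 lower, beside 10.4% of all gene names higher and 11% lower. The median difference over the members was 0.24, and -0.02 over all gene names. Without BA+DMSO replicate 2 these were 0.42 and -0.01, and with array brightness as a covariate 0.46 and -0.03. The 7 were Asns, Psat1, Phgdh, Mthfd2, Nupr1, Eif4ebp1 and Gars, and the 3 were Cbs, Vldlr and Cth. Cth passed the filter through the DMSO arrays alone, and with normexp background correction its difference was 0.13 and not called. Without BA+DMSO replicate 2, 13 members were called higher, beside 14.8% of all gene names, and 3 lower, beside 13.6%. Those 13 held the 7 named above, with Mthfd1l, Aldh1l2, Slc3a2, Gpt2, Iars and Tars added. With slide as a fixed block, 0 members and 0.0599% of all gene names were called.

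With rapamycin on board, the challenge raised 5 members and lowered 8. The 5 were Asns, Psat1, Slc7a1, Sesn2 and Sars, beside 19.8% of all gene names called higher. The 8 were Cbs, Vldlr, Trib3, Stc2, Pck2, Cth, Ddit4 and Lars, beside 22.9% called lower. The median difference was -0.11 over the members and -0.07 over all gene names. The members' median was 0.07 when arrays were scaled to the percentile of probes above background everywhere. It was -0.28 with quantile normalization, 0.20 with array brightness as a covariate, and between -0.24 and -0.02 with 1 array left out. Between the 2 challenge comparisons, which share no arrays, 5 members (13.5% of the 37) were called in both with the same sign, beside 17.5% of all gene names: Asns and Psat1 higher, and Cbs, Cth and Vldlr lower. Cth was not well above background on any challenged array, and with normexp background correction its sign turned in both comparisons. The members called in both were 5 of the 10 called with vehicle and 5 of the 13 called with rapamycin on board (38.5%), against 81.6% and 40.9% for all gene names. Phgdh, Mthfd2, Nupr1, Eif4ebp1 and Gars were called with vehicle alone, and Trib3, Ddit4, Stc2, Pck2, Lars, Sesn2, Slc7a1 and Sars with rapamycin alone. The count of 13, beside 42.7% of all gene names called in either direction, was 17 (58.3% of all) without BA+DMSO replicate 2, with Mthfd1l, Psph, Iars and Nars added. That array is in neither group of this comparison, so the differences stayed as they were and only the pooled spread changed. Mthfd1l differed by 0.63 (adjusted p = 0.211 with all arrays and 0.0208 without it), Psph by -0.55 (0.200 and 0.0259), Iars by -0.33 (0.368 and 0.0411) and Nars by -0.51 (0.0884 and 0.0239). The count was 7 (35.5%) without BA+rapamycin replicate 1, 8 (29.2%) without rapamycin replicate 1 and 8 (24.2%) without rapamycin replicate 3. Such a split of calls does not show that the effects differ, and the test of that difference follows further on.

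The next question was what rapamycin did to these genes. Under challenge, the mean of BA+rapamycin lay below that of BA+DMSO for 34 of the 37 members, the exceptions being Slc7a1, Wars and Yars. The median difference was -0.58 over the members and -0.03 over all gene names, and under the other scalings it lay between -0.59 and -0.44. Only Phgdh was called (lower), beside 0.305% of all gene names called in either direction. At an unadjusted p under 0.05 there were 24 of 37 members, and 4104 of the 20026 gene names. All 3 BA+rapamycin arrays lay below all 3 BA+DMSO arrays for 17 members, beside 8.08% of all gene names, and above them for 0 members, beside 6.8%. Without BA+DMSO replicate 2, limma called 24 of the 37 members lower, Phgdh among them, beside 24.0% of all gene names called lower. It called 0 members higher, beside 17% of all gene names. With the title date as a random block (correlation 0.50), Psat1, Phgdh and Slc7a5 were called lower, beside 1.69% of all gene names called in either direction. Within the 1 date that held an array of each challenged group, 31 of 37 members were lower with rapamycin (median -0.47, 1 array against 1, no test). The count of 1 was 0 without BA+rapamycin replicate 1, BA+rapamycin replicate 2 or BA+DMSO replicate 3 (0.15%, 0.12% and 0.13% of all gene names called). It was 2 without BA+rapamycin replicate 3 or BA+DMSO replicate 1 (0.27% and 0.829%). Of the 24, 6 were among the 8 synthesis genes, 3 among the 4 one-carbon genes, 2 among the 3 transport genes tested, 5 among the 11 stress genes and 8 among the 11 tRNA synthetases.

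Without challenge, rapamycin gave 0 called members, beside 0.00499% of all gene names, and 25 of 37 means lay below DMSO. At an unadjusted p under 0.05 there were 4 members, and 888 of the 20026 gene names. The arrays did not overlap for 12 members lower with rapamycin, beside 11.8% of gene names, and for 2 members higher (Trib3 and Stc2), beside 10.6%. The 2 rapamycin comparisons share no arrays.

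**Figure D1:**
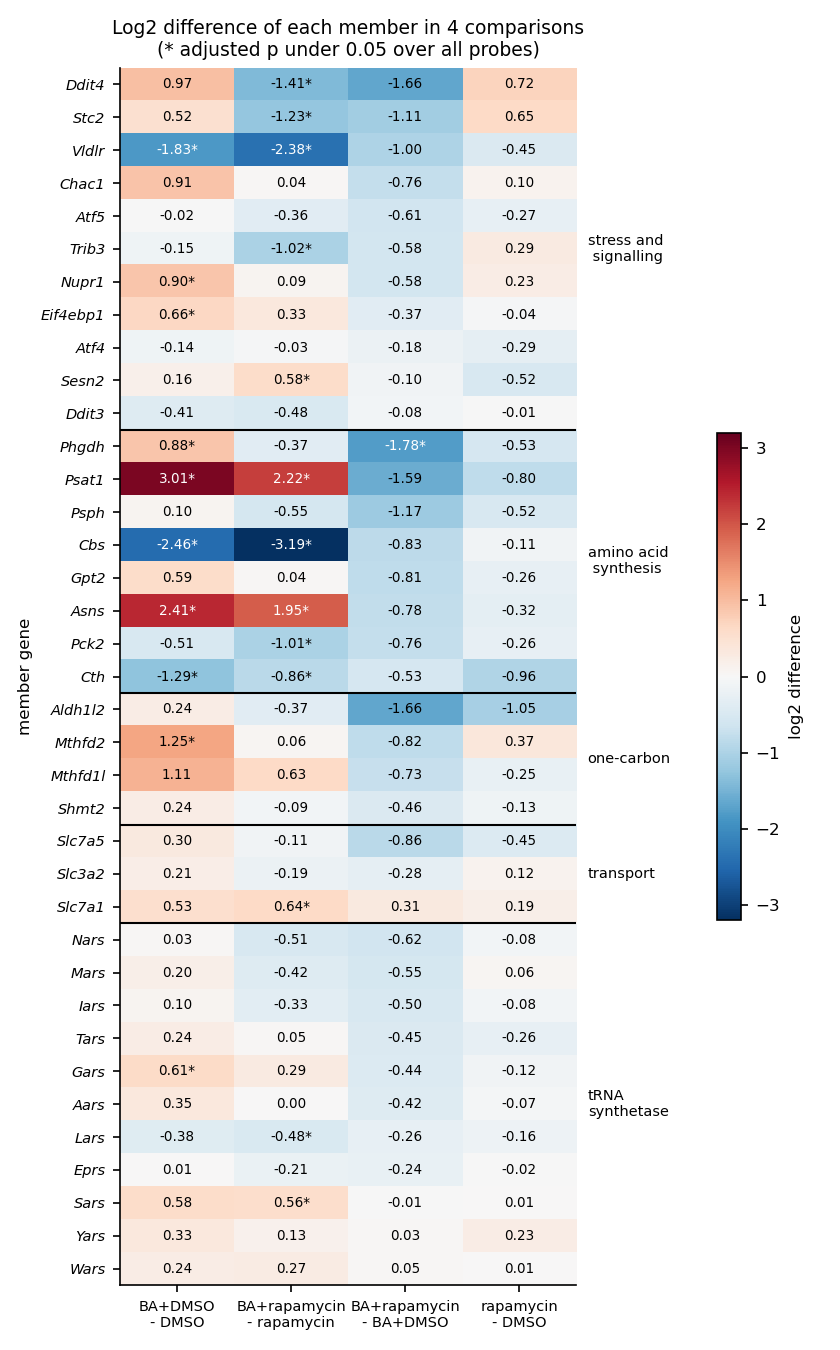
Log2 difference of the 37 tested members (rows, grouped by role list and ordered by the third column) in the challenge and rapamycin comparisons (columns), with an asterisk where the adjusted p was under 0.05. The third column, BA+rapamycin minus BA+DMSO, is below 0 in 34 rows, with 1 asterisk (Phgdh).

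Among the members, the widest rise and the widest fall under challenge were those of synthesis genes, Psat1 and Cbs. PHGDH, PSAT1 and PSPH catalyse the successive steps that make serine from a glycolytic intermediate. On the mouse build mm9 of the array's file, the probes read for Phgdh, Psat1, Asns and Cbs lie at chr3:98117215-98117274, chr19:15979622-15979681, chr6:7625171-7625228 and chr17:31749593-31749652. Phgdh, the gene of the first step, stood at 1.83, 1.46 and 1.29 on the DMSO arrays, at 0.88, 1.1 and 1.01 with rapamycin, at 2.60, 1.89 and 2.72 with BA+DMSO and at 0.41, 0.57 and 0.90 with BA+rapamycin. The BA+DMSO arrays were all highest and the BA+rapamycin arrays all below DMSO, with no overlap between the 2 challenged groups. Phgdh was 3.44-fold lower with BA+rapamycin than with BA+DMSO (log2 difference -1.78, 95% interval -2.31 to -1.25, limma adjusted p = 0.0178). Its second probe, which shares the transcript and the arrays, gave -1.94 (adjusted p = 0.0159). The call was lost without BA+rapamycin replicate 1 (adjusted p = 0.0589), without BA+rapamycin replicate 2 (0.0704) or without BA+DMSO replicate 3 (0.0523), with differences of -2.04 to -1.62 over all arrays left out in turn. It was also lost with normexp background correction (0.0582), no filter on dim probes (0.0678), the arrays of slide 2 (0.169) and a fit of the groups compared alone (0.458). In the challenge with vehicle, Phgdh rose by 0.88 (adjusted p = 0.0281), a call lost without DMSO replicate 2 (0.102), DMSO replicate 3 (0.10) or BA+DMSO replicate 1 (0.0951), with normexp (0.0699), with no filter (0.0723) and in a fit of the groups compared alone (0.133). With rapamycin on board, its difference between challenged and unchallenged arrays was -0.37 (adjusted p = 0.233).

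Psat1, the gene of the second step, read -0.50, -0.66 and -1.14 with DMSO, -2.09, -1.21 and -1.42 with rapamycin, 2.67, 1.34 and 2.71 with BA+DMSO and 0.78, 0.66 and 0.51 with BA+rapamycin. The 4 groups did not overlap, and within BA+DMSO replicate 2 was the low array. Psat1 rose 8.04-fold in the challenge with vehicle (log2 3.01 ± 0.36 SE, adjusted p = 0.000642), the widest rise of any member, and 4.66-fold with rapamycin on board (log2 2.22 ± 0.36, adjusted p = 0.00157). Its second, dimmer probe was called in the first comparison (2.10, adjusted p = 0.00665) and not in the other (1.02, adjusted p = 0.0679). Between BA+rapamycin and BA+DMSO, Psat1 differed by -1.59 (adjusted p = 0.0856), by -2.04 without BA+DMSO replicate 2 (adjusted p = 0.00222), and by -1.72 with title date as a random block (0.0364). Psph, the gene of the last step, ran from 0.46 to 0.70 with DMSO and from -0.78 to -0.19 with BA+rapamycin. In BA+DMSO it was 1.02, -0.21 and 1.3, so replicate 2 alone lay among the BA+rapamycin values. The difference under rapamycin was -1.17 (adjusted p = 0.129) with all arrays and -1.62 without that array (0.00200).

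Asns encodes asparagine synthetase, a textbook ATF4 target. It read 0.24, -0.36 and -0.28 with DMSO, -0.29, -0.66 and -0.39 with rapamycin, 2.23, 2.15 and 2.48 with BA+DMSO and 1.67, 1.90 and 0.94 with BA+rapamycin. Every challenged array lay above every unchallenged one, and the BA+rapamycin arrays lay between. Asns rose 5.33-fold with vehicle (log2 2.41 ± 0.26, adjusted p = 0.000370) and 3.86-fold with rapamycin on board (log2 1.95 ± 0.26, adjusted p = 0.000615), and leaving out any 1 array did not end either call. Its difference between the challenged groups was -0.78 (adjusted p = 0.167), or -0.85 without BA+DMSO replicate 2 (0.0410).

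Cbs and Cth encode the enzymes that pass sulfur from homocysteine to cysteine. Cbs, the first of them, read 1.75, 1.81 and 1.48 with DMSO, 1.84, 1.40 and 1.49 with rapamycin, -1.35, -0.19 and -0.79 with BA+DMSO and -1.42, -2.05 and -1.36 with BA+rapamycin. The challenged arrays were all far below the others, and each BA+rapamycin array lay just below or far below the BA+DMSO arrays. Cbs fell 5.51-fold with vehicle (log2 -2.46 ± 0.29, adjusted p = 0.000607) and 9.11-fold with rapamycin on board (log2 -3.19 ± 0.29, adjusted p = 0.000108), again whichever array was left out. Cth, the second, was well above background on 3 of 3 DMSO arrays, on 1 of 3 with rapamycin and on 0 of 3 in both challenged groups. Its measured values were -2.97, -2.80 and -3.03 with DMSO, -3.45, -4.14 and -4.10 with rapamycin, -4.22, -4.49 and -3.95 with BA+DMSO and -4.89, -4.39 and -4.98 with BA+rapamycin. DMSO values were thus the highest and did not overlap with any other group. Against the background limit, Cth was at least 1.23-fold lower in BA+DMSO than in DMSO (measured difference -1.29, adjusted p = 0.00503), and with normexp background correction the difference was 0.13 and not called. This call with vehicle was also lost with no filter on dim probes and with slide as a fixed block. With rapamycin on board, where 1 of 3 rapamycin arrays measured it above background, Cth was also called lower (-0.86, adjusted p = 0.0173), a call lost without rapamycin replicate 1, BA+rapamycin replicate 1 or BA+rapamycin replicate 3 (adjusted p between 0.0508 and 0.0691). It was also lost with no filter on dim probes, slide as a fixed block, the arrays of slide 2 and array brightness as a covariate (adjusted p up to 0.346). These readings were near background, no bound on the fold can be given, and with normexp Cth was called higher instead (0.70, adjusted p = 0.0107).

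Gpt2, for mitochondrial alanine aminotransferase, and Pck2, for mitochondrial phosphoenolpyruvate carboxykinase, complete the list. Pck2 read -2.04, -1.86 and -1.89 with DMSO, -2.30, -2.09 and -2.18 with rapamycin, -2.42, -2.89 and -2.02 with BA+DMSO and -2.86, -3.63 and -3.13 with BA+rapamycin, where it was well above background on 0 of 3 arrays. Pck2 fell in the challenge with rapamycin on board, by at least 1.39-fold (measured difference -1.01, adjusted p = 0.00922). Pck2 passed the filter through the unchallenged groups alone, so this call adds no support. With normexp background correction it was called the other way, higher by 0.34 (adjusted p = 0.0421), and it was not called on the arrays of slide 2 (0.0688) or with array brightness as a covariate (-0.15, 0.778). Against BA+DMSO the BA+rapamycin level was lower by at least 1.16-fold (measured difference -0.76, adjusted p = 0.158, not called; -0.98 and 0.00930 without BA+DMSO replicate 2, called). Gpt2 lay between -0.60 and 0.04 in BA+DMSO and between -1.22 and -1.16 in BA+rapamycin, without overlap, with a difference of -0.81 (adjusted p = 0.107; -0.91 without BA+DMSO replicate 2, adjusted p = 0.0113). Its challenge difference with vehicle was 0.59 (adjusted p = 0.0731), or 0.68 without that array (0.0421). All 8 synthesis genes had lower means with rapamycin in both rapamycin comparisons, 8 of 8 at an unadjusted p under 0.05 under challenge and 2 of 8 without it, where the median was -0.42 and 0 of 8 were called.

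**Figure D2:**
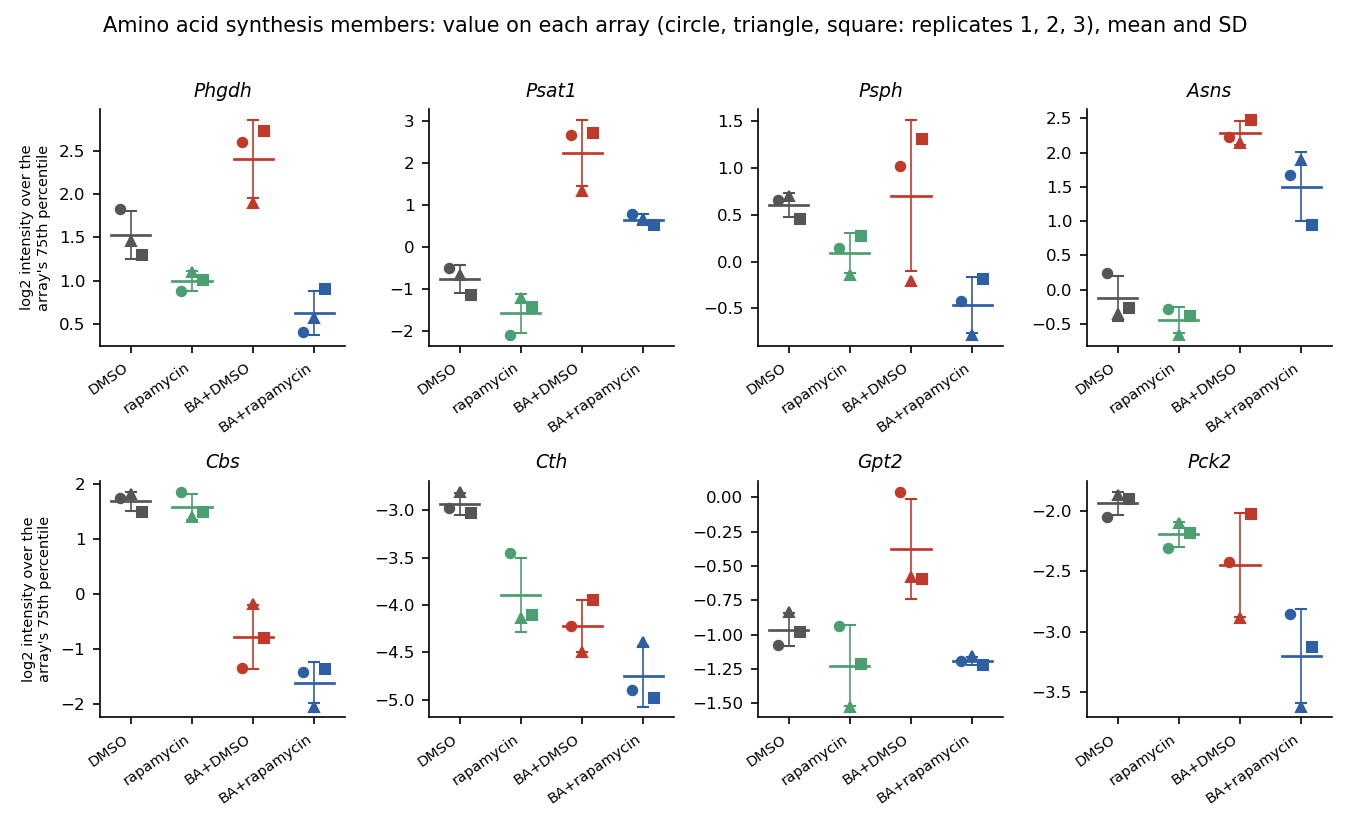
Log2 intensity over the array's 75th percentile (vertical axis) of the 8 amino acid synthesis members on each array of the 4 groups (horizontal axis), with circles, triangles and squares for replicates 1, 2 and 3, group means as lines and SD as bars. By group mean, Phgdh and Psat1 are highest with BA+DMSO and Cbs and Cth with DMSO, and the BA+DMSO triangle of Psph, at -0.21, lies apart from the other BA+DMSO arrays.

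The one-carbon genes encode mitochondrial enzymes that take the carbon unit of serine into folate and on to formate. Mthfd2, for a bifunctional dehydrogenase and cyclohydrolase, read -0.52, -0.83 and -0.11 with DMSO, 0.11, -0.60 and 0.14 with rapamycin, 0.76, 0.79 and 0.76 with BA+DMSO and -0.31, 0.14 and 0.01 with BA+rapamycin. Its BA+DMSO arrays were alike (SD 0.02) and above every array of the other groups, which overlapped each other. Mthfd2 rose 2.38-fold in the challenge with vehicle (log2 1.25 ± 0.24, adjusted p = 0.00634) and differed by 0.06 with rapamycin on board (adjusted p = 0.850). Between the challenged groups the difference was -0.82 (adjusted p = 0.139), or -0.81 without BA+DMSO replicate 2 (0.0395).

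Mthfd1l, for the enzyme that releases formate, read -0.27, -0.56 and -1.05 with DMSO, -1.09, -0.82 and -0.70 with rapamycin, 1.05, -0.62 and 1.03 with BA+DMSO and -0.23, -0.36 and -0.14 with BA+rapamycin. BA+DMSO replicate 2 lay among the DMSO arrays and below all BA+rapamycin arrays. The challenge with vehicle gave 1.11 (adjusted p = 0.0673), or 1.66 without that array (0.000946), and rapamycin under challenge gave -0.73 (0.296), or -1.28 without it (0.00400). Aldh1l2, for a mitochondrial formyltetrahydrofolate dehydrogenase, had the widest spread within a group of any member. Its values were -0.33, -0.51 and -0.65 with DMSO, -1.60, -1.78 and -1.27 with rapamycin, 0.55, -2.0 and 0.68 with BA+DMSO and -1.58, -1.55 and -2.62 with BA+rapamycin. Both groups given rapamycin lay below DMSO, and BA+DMSO replicate 2 lay with them rather than with its own group. Rapamycin under challenge gave -1.66 ± 0.59 (adjusted p = 0.186), and -2.53 without that array (0.00185), and the challenge with vehicle gave 0.24 (0.805) and 1.11 (0.0250). Shmt2, for mitochondrial serine hydroxymethyltransferase, had group means from 1.22 to 1.68, and no comparison called it.

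**Figure D3:**
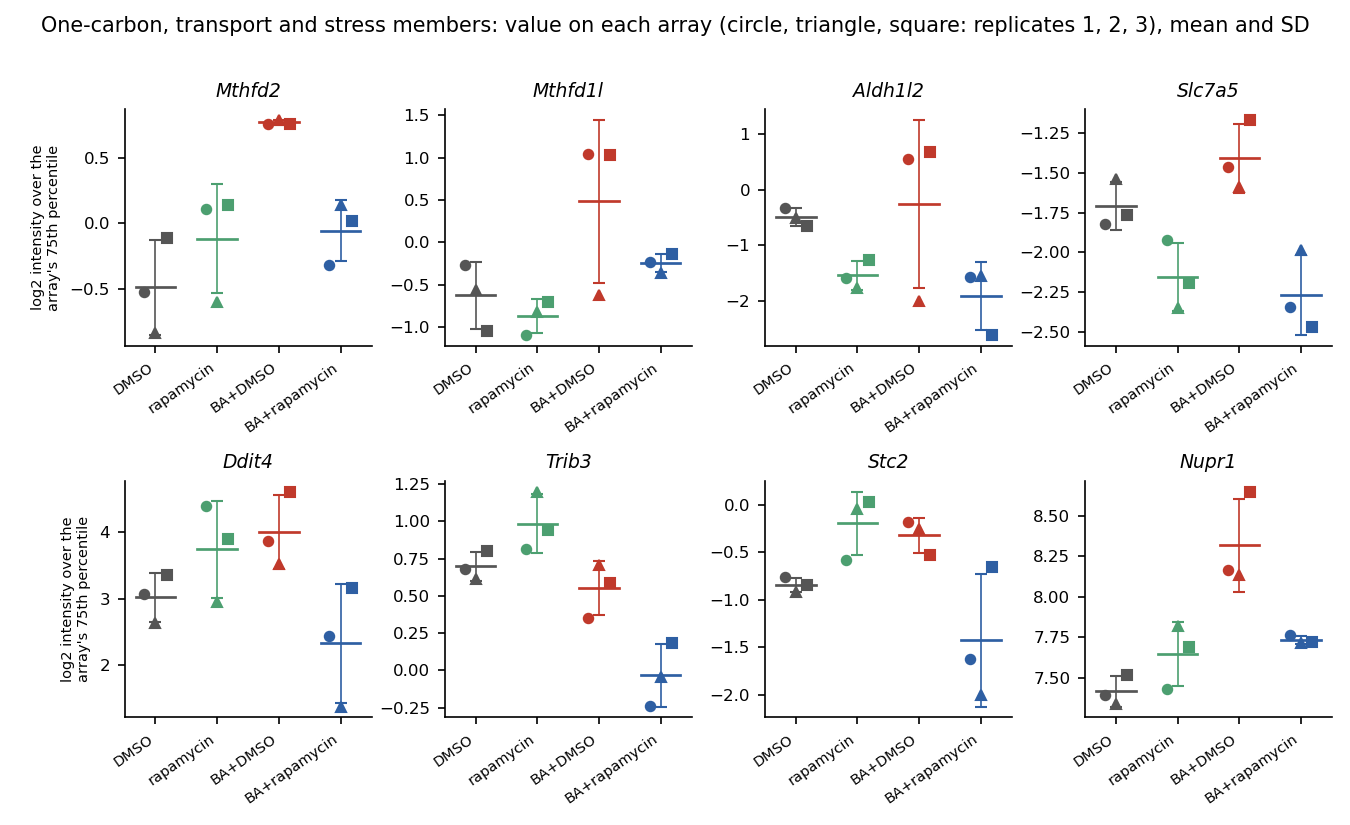
Log2 intensity over the array's 75th percentile (vertical axis) of 8 one-carbon, transport and stress members on each array of the 4 groups (horizontal axis), with circles, triangles and squares for replicates 1, 2 and 3, group means as lines and SD as bars. The Mthfd2 values with BA+DMSO, between 0.76 and 0.79, lie above all other arrays, and the BA+DMSO triangle of Aldh1l2 lies at -2.0.

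Of the transport genes, Slc7a5 and Slc3a2 encode the light and heavy chains of a leucine exchanger, and Slc7a1 encodes an importer of arginine and lysine. Slc7a5 read -1.82, -1.54 and -1.77 with DMSO, -1.92, -2.35 and -2.20 with rapamycin, -1.46, -1.59 and -1.17 with BA+DMSO and -2.35, -1.98 and -2.47 with BA+rapamycin. Arrays of mice given rapamycin lay below the matching vehicle arrays in both settings, with differences of -0.86 under challenge (adjusted p = 0.0856) and -0.45 without it (adjusted p = 1.000), neither called. The first was called without BA+DMSO replicate 2 (-0.95, adjusted p = 0.00677) and with title date as a random block (-0.85, 0.0429). A second probe of Slc7a5 was well above background on 0 of the challenged arrays and gives no fold there.

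Slc7a1 read 3.23, 3.43 and 3.36 with DMSO, 3.61, 3.57 and 3.42 with rapamycin, 3.6, 4.09 and 3.91 with BA+DMSO and 4.33, 4.23 and 3.97 with BA+rapamycin. Its highest group mean was that of BA+rapamycin, whose arrays overlapped those of BA+DMSO. Slc7a1 rose 1.56-fold in the challenge with rapamycin on board (log2 0.64 ± 0.18, adjusted p = 0.0154), a call lost without rapamycin replicate 3 (0.0638) or BA+rapamycin replicate 1 (0.0511), with normexp background correction (0.225), on the arrays of slide 2 (0.0987) and with array brightness as a covariate (0.343). With vehicle the difference was 0.53 (adjusted p = 0.0545). Slc3a2 stayed between 3.61 and 3.84 on the unchallenged arrays, with a challenge difference of 0.21 (adjusted p = 0.446), or 0.42 without BA+DMSO replicate 2 (0.0258). Under rapamycin in the challenge Slc3a2 differed by -0.28 (0.371), or by -0.49 without that array (0.0118).

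In the stress and signalling list, Atf4 itself was called in no comparison. Its values were 6.77, 6.73 and 6.69 with DMSO, 6.5, 6.39 and 6.44 with rapamycin, 6.72, 6.25 and 6.83 with BA+DMSO and 6.35, 6.72 and 6.17 with BA+rapamycin. The rapamycin arrays lay below the DMSO arrays, and the challenged groups overlapped. Its differences ran from -0.29 (rapamycin alone) to -0.03 (challenge with rapamycin on board), and its second probe was not called either. The array measures mRNA, and ATF4 protein was not measured here. Atf5, for a related factor, differed by -0.61 between the challenged groups (adjusted p = 0.231), with the BA+DMSO replicate 2 value of 7.62 above all other arrays, and by -0.27 without it. Ddit3, for the stress factor CHOP, had differences between -0.48 and -0.01 over the 4 comparisons, none called.

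Ddit4 and Sesn2 encode stress-induced inhibitors of mTOR complex 1. Ddit4 read 3.07, 2.63 and 3.35 with DMSO, 4.38, 2.94 and 3.89 with rapamycin, 3.86, 3.52 and 4.60 with BA+DMSO and 2.44, 1.39 and 3.16 with BA+rapamycin. BA+DMSO arrays lay above all DMSO arrays and BA+rapamycin arrays lay below all BA+DMSO arrays, while the BA+rapamycin arrays were far apart from each other. The challenge with rapamycin on board lowered Ddit4 by limma (-1.41 ± 0.48, adjusted p = 0.0371), though rapamycin replicate 2 and BA+rapamycin replicate 3 overlapped. That call was lost without DMSO replicate 1, without rapamycin replicate 1 or 3, or without BA+rapamycin replicate 1 or 2 (adjusted p from 0.0506 to 0.137). It was also lost under quantile normalization (0.0546), under scaling to the percentile of probes above background everywhere (0.0578), in the deposited matrix (0.0556), with title date as a random block (0.0639), with slide as a fixed block (0.130), on the arrays of slide 2 (0.188), in a fit of the groups compared alone (0.0582) and with array brightness as a covariate (-0.19, 0.903), 13 of 26 alternatives in all. With vehicle the difference had the other sign, 0.97 (adjusted p = 0.173), and rapamycin under challenge gave -1.66 (0.130; -1.90 and 0.0218 without BA+DMSO replicate 2). Sesn2 read 0.55, 0.85 and 0.64 with DMSO, 0.07, 0.39 and 0.02 with rapamycin, 0.67, 1.22 and 0.64 with BA+DMSO and 0.76, 0.70 and 0.77 with BA+rapamycin. The rapamycin arrays were the lowest, and Sesn2 was called higher in the challenge with rapamycin on board (0.58 ± 0.19, adjusted p = 0.0335). The call of Sesn2 was lost in 6 of the 12 fits that left out 1 array: without DMSO replicate 3, rapamycin replicate 1 or 3, or any of the BA+rapamycin arrays (adjusted p up to 0.117). It was also lost with normexp background correction (0.0521), no filter on dim probes (0.0504), slide as a fixed block (0.0992), the arrays of slide 2 (0.182) and the brightness covariate (0.788).

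Trib3 encodes a pseudokinase that damps ATF4 and Akt signalling, and Stc2 a secreted glycoprotein induced by stress. Trib3 read 0.68, 0.61 and 0.80 with DMSO, 0.81, 1.20 and 0.94 with rapamycin, 0.35, 0.71 and 0.59 with BA+DMSO and -0.24, -0.04 and 0.18 with BA+rapamycin. Rapamycin alone gave the highest values and BA+rapamycin the lowest, each without overlap with its vehicle group. Trib3 fell 2.02-fold in the challenge with rapamycin on board (log2 -1.02 ± 0.18, adjusted p = 0.00217) whichever array was left out, and differed by -0.15 with vehicle (adjusted p = 0.589). Stc2 read -0.77, -0.92 and -0.85 with DMSO, -0.58, -0.04 and 0.03 with rapamycin, -0.18, -0.26 and -0.53 with BA+DMSO and -1.62, -2.01 and -0.66 with BA+rapamycin. As for Trib3, rapamycin arrays lay above DMSO arrays without challenge and below vehicle arrays under it. Stc2 fell 2.35-fold in the challenge with rapamycin on board (log2 -1.23 ± 0.31, adjusted p = 0.0102; 0.271 with array brightness as a covariate), and with vehicle the difference was 0.52 (adjusted p = 0.248). Rapamycin under challenge gave -0.58 for Trib3 (0.143) and -1.11 for Stc2 (0.121). Without BA+DMSO replicate 2 both were called, with -0.50 (0.0419) and -1.07 (0.0356).

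Vldlr, for the very low density lipoprotein receptor, read 4.56, 4.70 and 4.57 with DMSO, 4.26, 4.06 and 4.15 with rapamycin, 2.19, 2.96 and 3.19 with BA+DMSO and 1.71, 1.93 and 1.7 with BA+rapamycin. The groups fell in that order with no array out of place. Vldlr fell 3.55-fold with vehicle (log2 -1.83 ± 0.23, adjusted p = 0.000806) and 5.19-fold with rapamycin on board (log2 -2.38 ± 0.23, adjusted p = 0.000132), and its second probe was called lower in both (-1.84 and -2.14). Its direction was thus the reverse of that of Asns, although both are known as ATF4 targets. Rapamycin under challenge gave -1.0 (adjusted p = 0.0900; -0.91 and 0.0187 without BA+DMSO replicate 2).

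Nupr1, for a small stress-induced chromatin protein, read 7.39, 7.34 and 7.52 with DMSO, 7.43, 7.82 and 7.69 with rapamycin, 8.17, 8.13 and 8.65 with BA+DMSO and 7.76, 7.72 and 7.72 with BA+rapamycin. The BA+DMSO arrays were highest, and BA+rapamycin overlapped the rapamycin arrays. Nupr1 rose 1.86-fold in the challenge with vehicle (log2 0.90 ± 0.18, adjusted p = 0.00713), a call lost under quantile normalization (adjusted p = 0.136), in the values the authors deposited as a matrix (0.142), with normexp background correction (0.0627) and in a fit of the groups compared alone (0.0778). Under rapamycin in the challenge it differed by -0.58 (0.145), or by -0.67 without BA+DMSO replicate 2 (0.0147). Eif4ebp1, for a translation repressor that mTOR phosphorylates, read 4.15, 4.03 and 4.22 with DMSO, 3.85, 4.21 and 4.22 with rapamycin, 4.67, 4.72 and 5.0 with BA+DMSO and 4.54, 4.31 and 4.42 with BA+rapamycin. Its challenged arrays lay above all unchallenged ones, with a rise of 0.66 ± 0.17 with vehicle (adjusted p = 0.0195) that was lost without DMSO replicate 1 (0.0578), replicate 2 (0.0906) or replicate 3 (0.0502), with normexp (0.151), with no filter on dim probes (0.0764) and in a fit of the groups compared alone (0.119). Chac1, for a glutathione-degrading enzyme, spread widely within groups (0.68, 0.10 and 1.17 in BA+DMSO, for example) and was not called, with a challenge difference of 0.91 (adjusted p = 0.128).

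The tRNA synthetases load amino acids onto tRNA, and in the challenge with vehicle their differences lay between -0.38 and 0.61. In that comparison, 10 of 11 means were higher, with a median of 0.24, beside -0.02 over all gene names. Of the 11, 1 was called (higher), beside 10.4% of all gene names called higher and 11% lower. Gars, the glycine enzyme, read 5.53, 5.45 and 5.27 with DMSO, 5.24, 5.24 and 5.41 with rapamycin, 6.17, 5.6 and 6.32 with BA+DMSO and 5.63, 5.67 and 5.46 with BA+rapamycin. Challenged arrays lay above unchallenged ones in both settings, and its call stood at the threshold (0.61 ± 0.20, adjusted p = 0.0498). It was lost with title date as a random block (adjusted p = 0.0711), with normexp (0.277), with no filter on dim probes (0.134), in a fit of the groups compared alone (0.203) and in 11 of the 12 fits that left out 1 array, the exception being the fit without BA+DMSO replicate 2 (0.83, adjusted p = 0.00278). Sars, the serine enzyme, read 4.27, 4.24 and 4.22 with DMSO, 4.21, 4.44 and 4.12 with rapamycin, 4.48, 5.25 and 4.73 with BA+DMSO and 4.76, 4.71 and 4.97 with BA+rapamycin. Its challenged arrays were all above the unchallenged ones, by 0.56 with rapamycin on board (adjusted p = 0.0453) and by 0.58 with vehicle (adjusted p = 0.0653).

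Lars, the leucine enzyme, went the other way. It read 3.59, 3.69 and 3.48 with DMSO, 3.42, 3.33 and 3.52 with rapamycin, 3.18, 2.92 and 3.51 with BA+DMSO and 2.91, 2.95 and 2.96 with BA+rapamycin, and was called lower in the challenge with rapamycin on board (-0.48 ± 0.17, adjusted p = 0.0430). Its BA+rapamycin arrays lay below every unchallenged array. The calls of Sars and of Lars were each lost in 9 of the 12 fits that left out 1 array, the 3 BA+DMSO arrays being the exceptions. The call of Lars was lost or reversed in 17 of 26 alternatives. Beside the left-out arrays these were quantile normalization (adjusted p = 0.0799), scaling to the percentile of probes above background everywhere (0.0922), the deposited matrix (0.0838), no filter on dim probes (0.0729), slide as a fixed block (0.0991), the arrays of slide 2 (0.192), title date as a random block (0.0517) and array brightness as a covariate, where the sign turned (0.018, 0.966). The call of Sars was also lost with normexp background correction (0.456), with no filter (0.0639), with slide as a fixed block (0.112), on the arrays of slide 2 (0.205) and with the brightness covariate (0.729).

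Under challenge, 9 of the 11 synthetase means were lower with rapamycin, with a median of -0.42, and 0 were called, beside 0.305% of all gene names. Nars, the asparagine enzyme, differed most with all arrays. Its BA+DMSO arrays read 1.99, 1.60 and 2.55 and its BA+rapamycin arrays 1.48, 1.49 and 1.31, beside 2.09, 1.92 and 2.04 with DMSO and 1.76, 1.93 and 2.11 with rapamycin. The challenged groups did not overlap (-0.62 ± 0.22, adjusted p = 0.192; -0.84 and 0.00825 without BA+DMSO replicate 2). Mars, the methionine enzyme, read 0.86, 0.52 and 1.54 and 0.41, 0.33 and 0.52 in the same groups, beside 0.96, 0.70 and 0.66 with DMSO and 0.73, 0.89 and 0.90 with rapamycin. The nearest arrays of both groups met at 0.52 without crossing (-0.55 ± 0.23, adjusted p = 0.228; -0.78 and 0.0144 without that array). Aars, the alanine enzyme, did not overlap either (-0.42, adjusted p = 0.169; -0.42 and 0.0279 without that array), with a second probe well above background on 0 of 12 arrays. Eprs, Iars and Tars, for glutamate and proline, isoleucine and threonine, differed by -0.24, -0.50 and -0.45, none called with all arrays. Without BA+DMSO replicate 2 the differences were -0.53 (adjusted p = 0.0258), -0.91 (0.00281) and -0.69 (0.00436), all called, and Iars had the largest difference of the list. Gars and Lars were also called without it, at -0.66 (0.00718) and -0.41 (0.0421), beside -0.44 and -0.26 with all arrays. In the challenge with vehicle, leaving it out moved Iars from 0.10 to 0.50 (0.0220) and Tars from 0.24 to 0.48 (0.0180). BA+DMSO replicate 2 was the low array of its group for Eprs, Iars, Tars, Gars, Lars, Mars and Nars, and the high one for Sars, Wars and Yars. Wars and Yars, for tryptophan and tyrosine, differed by 0.05 and 0.03 with all arrays and were not called in any comparison, Yars being well above background on 1 of 3 arrays in each challenged group, and a second probe of Wars gave the other sign (-0.24, adjusted p = 0.638).

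**Figure D4:**
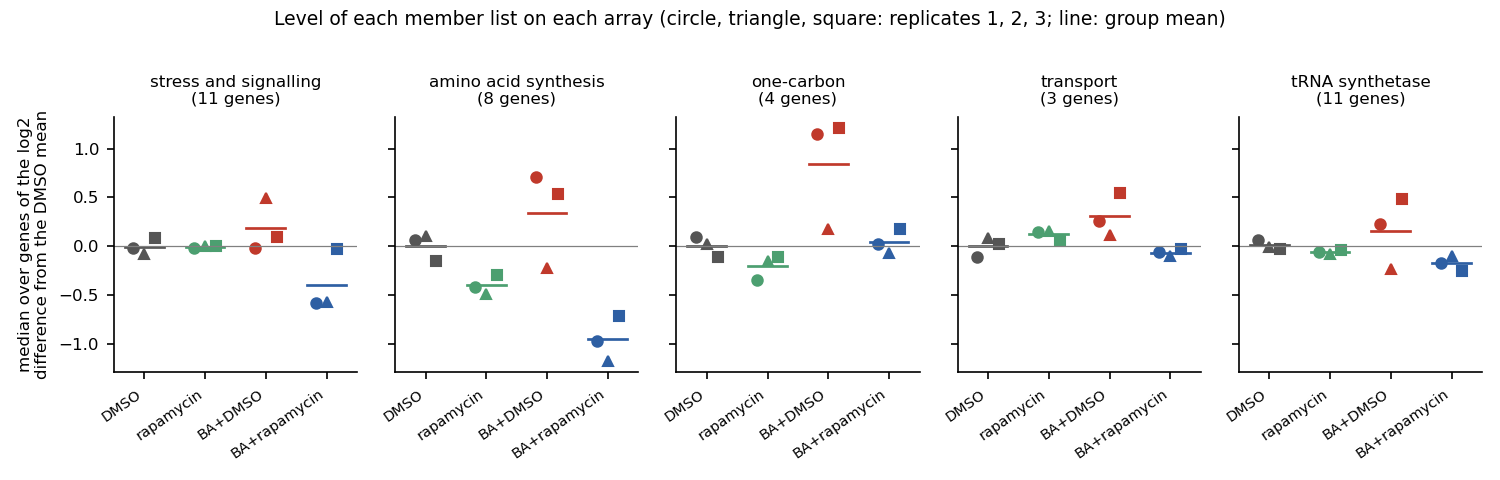
Median over the tested members of each role list of the log2 difference from the DMSO mean (vertical axis), for each array of the 4 groups (horizontal axis), with circles, triangles and squares for replicates 1, 2 and 3 and group means as lines. The synthesis list lies between -1.17 and -0.71 on the BA+rapamycin arrays, below all other arrays, and the BA+DMSO triangle is the lowest of its group in 4 of the 5 lists and the highest in the stress list.

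Whether rapamycin changed the response to the challenge was tested as the difference between both challenge effects. By limma, 0 members and 0 gene names (0.0%) were called at an adjusted p under 0.05, with 1204 gene names at an unadjusted p under 0.05. The 6 members among these were Stc2 (-1.75, adjusted p = 0.494), Phgdh (-1.25), Ddit4 (-2.38), Trib3 (-0.87), Mthfd2 (-1.19) and Nupr1 (-0.81). The sign was negative for 32 of 37 members, so that the challenge effect was lower with rapamycin on board, with a median of -0.42 over the members and -0.04 over all gene names. Without BA+DMSO replicate 2, 8 members were called, all lower, beside 7.42% of all gene names called lower. They were Ddit4 (-2.62, adjusted p = 0.0491), Phgdh (-1.50, 0.0272), Psph (-1.11, 0.0404), Aldh1l2 (-1.48, 0.0491), Slc3a2 (-0.61, 0.0437), Nupr1 (-0.90, 0.0428), Stc2 (-1.72, 0.0471) and Iars (-0.83, 0.0354). With all arrays, the interaction of Psph was -0.65, that of Aldh1l2 -0.61, that of Slc3a2 -0.40 and that of Iars -0.42, and the adjusted p of these 8 members lay between 0.494 and 0.812.

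**Figure D5:**
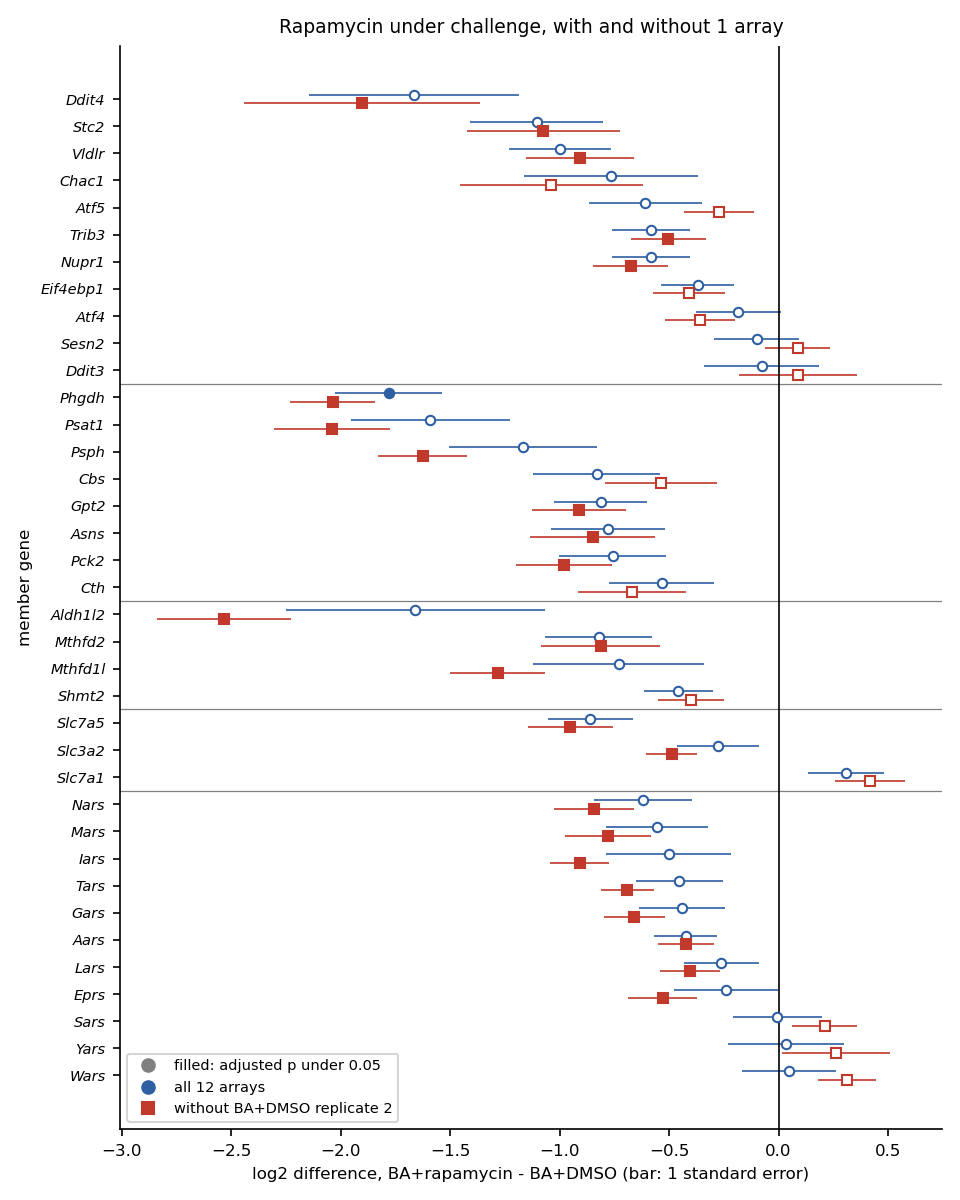
Log2 difference between BA+rapamycin and BA+DMSO (horizontal axis, bars of 1 standard error) for each tested member (vertical axis), with all 12 arrays (circles) and without BA+DMSO replicate 2 (squares), filled where the adjusted p was under 0.05. The filled marks number 1 among the circles and 24 among the squares, and Aldh1l2 moves from -1.66 to -2.53.

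Genes of the surrounding pathways were read from wider lists, whose counts in the challenge with vehicle stand beside 10.4% of all gene names called higher and 11% lower. Of 16 genes of the integrated stress response machinery, 1 was called higher and 4 lower in the challenge with vehicle. Atf3, an immediate stress factor, fell by 5.10 on the log2 scale (SE 0.50, adjusted p = 0.000250), the widest fall of the lists. Next within this list were Ppp1r15a, for the phosphatase subunit that reverses eIF2 phosphorylation (-1.01, adjusted p = 0.0365), and Eif2ak4, for the eIF2 kinase that senses uncharged tRNA (-0.80, adjusted p = 0.0128). Of 12 other cytosolic synthetase and scaffold genes, 2 were called higher, Cars (0.70, adjusted p = 0.00770) and Hars (0.46, adjusted p = 0.0439), and Eef1e1 gave 0.38 (adjusted p = 0.491). Of 16 mitochondrial synthetases tested, 0 were called by limma, with 3 at an unadjusted p under 0.05, beside 7251 of the 20026 gene names. Means were lower for 15 of the 16, and the largest differences were those of Mars2 (-0.63, adjusted p = 0.131), Sars2 (0.59, 0.0595) and Iars2 (-0.49, 0.155).

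Other amino acid transporters went both ways, with 5 of 20 called higher and 3 lower. Slc7a8, for a neutral amino acid exchanger, rose by 1.82 (adjusted p = 0.00755), and Slc1a3, for a glutamate importer, by 1.81 (0.0156). Slc38a3, for a glutamine transporter, was well above background on 0 of the challenged arrays and at least 2.28-fold lower in BA+DMSO (measured difference -2.34, adjusted p = 0.00307). It passed the filter through unchallenged groups alone, so its call among the lower ones adds no support. Of 19 other amino acid and folate enzyme genes tested, 2 were called higher and 1 lower. Bcat1, for the cytosolic branched-chain aminotransferase, rose by 2.25 (adjusted p = 0.000360), cytosolic Mthfd1 fell (-0.85, 0.0380), and Aldh18a1, of proline synthesis, gave 0.85 (0.0658). In the comparison of BA+rapamycin with BA+DMSO, 0 genes of these lists were called, with medians of -0.16, -0.23, -0.20, -0.15 and -0.42 in the order given, and with unadjusted p under 0.05 for 2, 3, 3, 2 and 6 genes. Over all gene names, 0.305% were called there, and 4104 of 20026 had an unadjusted p under 0.05.

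Markers of other cells moved with the same groups. All 6 tested macrophage markers were called higher in the challenge with vehicle, with a median of 2.4. All 6 markers of proliferating cells were also called higher, with a measured median of 4.5. The summed level of the proliferation markers, in multiples of the array's 75th percentile, ran from 1.54 to 1.80 with DMSO, from 0.768 to 1.02 with rapamycin, from 13.1 to 63.7 with BA+DMSO and from 12 to 15.4 with BA+rapamycin. Top2a and Cdk1 of this list were well above background on 0 of the 6 unchallenged arrays. Both passed the filter through challenged groups alone, so their calls add no support and the 4.5 is no exact value. The list's median difference under rapamycin was -1.32, with 0 of 6 called and 5 of 6 at an unadjusted p under 0.05. For the macrophage markers the ranges were 21.7 to 39.7, 35.1 to 45.9, 66.4 to 153 and 92.0 to 95.7 in the same order, with all 6 well above background on every array. Their median difference under rapamycin in the challenge was -0.55, with 5 of 6 lower, 0 called and 2 at an unadjusted p under 0.05. Neutrophil markers had medians of 1.69 in the challenge with vehicle (1 of 4 called, higher) and -0.42 under rapamycin (0 called). Erythroid markers, all 4 called higher in the challenge with vehicle, summed to 114 to 234 with BA+DMSO and to 309 to 350 with BA+rapamycin, beside 18.1 to 84.2 with DMSO and 80.5 to 187 with rapamycin. Of 3 lymphocyte markers tested, Cd3e and Cd2 were called higher in the challenge with vehicle (0.92 and 2.09). The 3 brown adipocyte markers tested had a median of 0.62 there, the lowest difference being -0.74. The highest was that of Ucp1, called higher. Ucp1 was well above background on 0 of 3 DMSO arrays, so no exact fold is given for it. The summed level of the 3 markers was not raised, at 12.5 to 19.2 with DMSO and 8.59 to 20.7 with BA+DMSO, beside 16.5 to 19.2 with rapamycin and 2.76 to 9.02 with BA+rapamycin. Their median under rapamycin in the challenge was -1.65, with 0 called and 1 at an unadjusted p under 0.05. Striated muscle markers had medians of -1.31 in the challenge with vehicle (0 of 4 called, 2 at an unadjusted p under 0.05) and 0.42 under rapamycin (0 called). They summed to 57.3 to 60.7 with DMSO, 50.3 to 59.2 with rapamycin, 17.5 to 62.2 with BA+DMSO and 15.4 to 25.8 with BA+rapamycin. The 4 adipocyte markers tested had medians of 1.44 and -0.16 in these comparisons, with 0 called. On BA+DMSO replicate 2, the array where many members were low, the medians of the macrophage and proliferation markers were the lowest of the group, and that of the smooth muscle markers was the highest. The part of these cells in the changes of Phgdh, Psat1, Asns and the other members was not tested.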

How the data were processed

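The authors hybridised Cy3-labelled aortic RNA of 12 mice to Agilent SurePrint G3 Mouse v2 arrays and deposited Feature Extraction files, whose processed signal is an intensity after background subtraction (version 9.5.1.1 per the labels, another version per the file headers). They also deposited a matrix of quantile-normalized intensities, whose log2 was used here as an alternative. Arrays have no sequencing depth, and their number limits the precision. Here, log2 of the processed signal minus each array's 75th percentile was fitted with limma (version 3.58.1, R 4.3.3) over all 12 arrays and 4 groups, with Benjamini-Hochberg adjustment over 27801 probes and calls at an adjusted p under 0.05. The fit was tested on simulated data. Where a probe was not well above background in a whole group, the fold is a lower bound against the lowest signal that was. Samples were grouped by their treatment labels, and 1 mouse gave 1 sample.

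Members, role lists, wider lists and marker lists were chosen with earlier results of these data known. Values per array are given for members called in any comparison and for the 2 of each role list with the largest difference in the challenge with vehicle or under rapamycin, and from each wider list the 3 largest differences in the challenge are named. Alternatives covered scaling, background correction, the filter on dim probes, slide, title date, brightness, array weights, the methods' rule, and each array left out. Probe positions are those of the files, on mm9.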

Additional observations from a re-analysis of the deposited data

How the results depend on the processing

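Each alternative changed 1 choice, except the rule of the study's methods, which replaced the adjusted p by an unadjusted p under 0.01 and added a fold limit of 4 or 0.25. Over 24 calls of single members, 611 refits kept 489, lost 118 and reversed 4, and the cause of these losses was not tested. In the challenge with vehicle, 10 members were called, against 6 with no filter on dim probes (8.63% of all gene names called), 0 with slide as a fixed block (0.0599%), 17 with slide as a random block (37.8%; its correlation was -0.13, and a value below 0 narrows the error between slides, so the rise was given no weight), 6 in a fit of the groups compared alone (4.8%), 18 with gene-by-gene array weights (46.9%), 3 by the fold and p rule of the study's methods (2.83%), and 7 to 16 with 1 array left out. With rapamycin on board, 13 were called, against 8 with slide as a fixed block (29.2%), 6 on the arrays of slide 2 (11.9%), 6 with array brightness as a covariate (6.89%), 3 by the methods' rule (5.43%), and 7 to 17 with 1 array left out. For rapamycin under challenge, 1 was called, against 0 with normexp background correction, no filter, slide 2 arrays, the groups compared alone or the methods' rule, 3 with the date in the titles as a random block, 16 with array weights (25.9% of all gene names), and 0 to 24 with 1 array left out. The highest of these ranges, 24, was the fit without BA+DMSO replicate 2, as was the 8 of the interaction, where 0 was the main count and the range was 0 to 8, with 1 by array weights (3.42%) and 1 by the methods' rule (0.215%). For rapamycin alone, array weights gave 2 (1.98% of all gene names). Slide 1 held a single treated array, so a fixed block for slide leaves little to compare with DMSO.

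Signs turned for Cth under normexp (0.13 with vehicle, 0.70 and called higher with rapamycin on board), for Pck2 under normexp with rapamycin on board (0.34, called higher), and for Lars with the brightness covariate (0.018). Cth and Pck2 were near background there, where the array's brightness limits what can be read. Scaling to probes above background everywhere moved the median of all probes between the challenged groups by over 0.1, to 0.13, and the members' median stayed below 0. No paired analysis was possible because the replicate numbers come from separate mice in each group and link no samples. Dates in the titles, shared by some arrays, were used as a random block instead.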
